A study of Mus musculus with 282 samples.

Results

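Imprinted genes were examined in the whole hypothalamus of 282 mice, all of them males that had been fed a diet high in fat and sugar. The set consists of 36 genes known to be imprinted in the mouse, or lying beside such a gene in an imprinted cluster. It was formed from the features whose gene name in the deposited assembly is one of the 36, with transcripts summed by name where 1 locus carries several names. Of the 36 genes, 34 were found in the expression table, among 14820 genes in all, with 244 of 51024 transcripts. Peg13 and Airn, both noncoding RNAs, had no feature of their name and were not analysed here. The mice differed by strain, with 99 strains in all. The strain is clear for every mouse but 1, whose labels name a pair of strains and which was left out of strain comparisons. The strains comprise 25 classical inbred strains (71 mice) and recombinant inbred strains of 4 kinds: 43 BXD (126 mice), 18 AXB/BXA (47 mice), 7 CXB (21 mice) and 6 BXH (16 mice). Each recombinant inbred set mixes the genome of C57BL/6J or a near relative with that of DBA/2J (BXD), A/J (AXB/BXA), C3H/HeJ (BXH) or a BALB/c line (CXB). A strain was represented by 3 mice in 85 cases, by 2 mice in 12 and by 1 mouse in 2, and mice of 1 strain are genetically near identical. The labels give no age, and nothing in them states whether mice of a strain came from separate cages or litters, so p values measure the spread between these mice.

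Imprinted genes are expressed mainly or only from the chromosome inherited from 1 parent, because a DNA methylation mark set in the egg or the sperm silences the other copy. They lie in clusters in which protein-coding genes of one parental origin sit next to noncoding RNAs of the other, and the mark is kept after fertilization by zinc finger proteins that bind methylated DNA. The hypothalamus is a site of strong expression of many imprinted genes, and loss of some of them disturbs feeding, growth or maternal care. The present values are totals over both parental copies. Every strain here is inbred, so the copies cannot be separated, and parental origin is given only as background.

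The libraries were unstranded, so reads of genes that overlap on opposite strands cannot be told apart. Nnat lies wholly within Blcap on chromosome 2, Zrsr1 within Commd1 on chromosome 11 and Nap1l5 within Herc3 on chromosome 6, each on the opposite strand. Mest and Copg2, also on opposite strands, overlap over 11574 bp on chromosome 6. Peg10 and Sgce do not overlap but start 102 bp apart and run in opposite directions. Meg3 and Mirg share a locus in the assembly, as do Snrpn and Snurf, and Commd1 and B3gnt2, and the values of these genes are sums of the transcripts that carry their name. For Usp29, Magel2 and Cdkn1c the deposited transcripts hold only 9.51%, 52.5% and 46.1% of the value of the locus, and the locus value was used.

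Some mice stood apart from the rest. Isoforms absent from the reference annotation held 9.79 to 11.2% of the summed transcript FPKM (reads scaled to transcript length and library size) in 18 mice, against 20.3 to 24.1% in the 264 others. The 18 were all mice of BXD-9/TyJ, BXD62, BXD70, BXD75, BXD85 and BXHA1, and 1 of the 3 mice of BXD87. In BXD87 the share was 10.3% in that mouse and 22.5% and 22.6% in its strain mates. For 1782 of the 51024 transcripts (3.49%) the values of the 18 mice did not overlap those of the others. The 18 were set apart by shares of these same transcript values, so this count is no separate support. A second case was 1 mouse of BXD-12/TyJ, whose FPKM summed to 792801 against a median of 337467, with the next mouse at 463433. In this mouse 14 of the 34 imprinted genes lay more than 1 log2 unit from the median of all mice (35.8% of all genes did). It held the lowest value of all mice in 14 imprinted genes, Plagl1, Impact and Ube3a being farthest below, and the highest in 7, with Commd1 at 187 FPKM against a median of 41.5. In several genes 1 mouse of CXB-3/ByJ also lay far from its strain mates. It had 1.64 FPKM of Ube3a beside 14.9 and 11.2, 80.7 of Peg3 beside 175 and 173, and 76.0 of Commd1 beside 38.4 and 43.7. No fit left out this mouse alone. The hypothalamic origin was visible in Pmch, Oxt, Avp and Hcrt, with medians of 477, 232, 219 and 120 FPKM. Together with Agrp, Pomc, Crh, Trh and Nkx2-1 they summed to at least 673 FPKM in every mouse. The lowest values of Agrp, Crh and Pomc were only 0.108, 0.790 and 1.45 FPKM. Markers of neighbouring tissue varied widely, the thalamus list from 17.4 to 381 FPKM, the choroid plexus list from 7.25 to 2101 and the anterior pituitary list from 0.589 to 16462.

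Promoter sequences are shown for 6 genes, because Zrsr1, Nnat and H13 were among those with the largest differences between strains and Peg3, Zim1 and Nap1l5 among those with the strongest covariation. They come from RefSeq on GRCm38.p6, which has the coordinates of mm10, and run from 250 bases before to 50 bases after the transcription start, 5′ to 3′ on the gene's strand. Capitals mark TGCCGC or its reverse complement GCGGCA, the core of the motif bound by the imprint-keeping zinc finger protein ZFP57 when its CpG is methylated. H13 lies at chr2:152669211-152669510 (plus strand), Nnat at chr2:157559828-157560127 (plus), Nap1l5 at chr6:58907077-58907376 (minus), Zim1 at chr7:6696383-6696682 (minus), Peg3 at chr7:6730370-6730669 (minus) and Zrsr1 at chr11:22971755-22972054 (plus).
Zrsr1: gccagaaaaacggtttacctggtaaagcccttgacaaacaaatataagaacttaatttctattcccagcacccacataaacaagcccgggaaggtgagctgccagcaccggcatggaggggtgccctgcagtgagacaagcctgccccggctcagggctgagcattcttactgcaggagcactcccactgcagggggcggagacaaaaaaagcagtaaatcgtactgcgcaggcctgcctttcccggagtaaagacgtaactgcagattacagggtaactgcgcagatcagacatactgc
Nnat: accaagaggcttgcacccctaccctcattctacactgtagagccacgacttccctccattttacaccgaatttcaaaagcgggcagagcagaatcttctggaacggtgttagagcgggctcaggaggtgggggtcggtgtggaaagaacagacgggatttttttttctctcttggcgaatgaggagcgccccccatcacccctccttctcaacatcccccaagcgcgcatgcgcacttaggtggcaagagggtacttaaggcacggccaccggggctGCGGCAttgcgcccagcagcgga
H13: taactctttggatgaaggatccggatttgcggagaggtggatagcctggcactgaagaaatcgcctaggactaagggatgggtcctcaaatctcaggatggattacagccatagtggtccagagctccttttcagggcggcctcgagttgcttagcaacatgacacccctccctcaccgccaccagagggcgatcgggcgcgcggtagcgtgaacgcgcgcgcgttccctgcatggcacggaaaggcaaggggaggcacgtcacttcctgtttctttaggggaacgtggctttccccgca
Peg3: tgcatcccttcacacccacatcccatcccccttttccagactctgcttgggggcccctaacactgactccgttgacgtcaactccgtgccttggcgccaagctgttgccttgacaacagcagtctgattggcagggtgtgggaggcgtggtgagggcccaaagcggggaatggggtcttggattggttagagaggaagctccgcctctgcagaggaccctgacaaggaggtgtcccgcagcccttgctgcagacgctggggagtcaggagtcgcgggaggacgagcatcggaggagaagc
Zim1: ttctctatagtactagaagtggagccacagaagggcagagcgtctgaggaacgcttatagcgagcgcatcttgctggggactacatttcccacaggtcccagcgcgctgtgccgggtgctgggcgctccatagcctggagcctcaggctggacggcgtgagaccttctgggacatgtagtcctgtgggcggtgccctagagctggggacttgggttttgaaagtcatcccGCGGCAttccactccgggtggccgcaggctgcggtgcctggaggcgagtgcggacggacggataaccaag
Nap1l5: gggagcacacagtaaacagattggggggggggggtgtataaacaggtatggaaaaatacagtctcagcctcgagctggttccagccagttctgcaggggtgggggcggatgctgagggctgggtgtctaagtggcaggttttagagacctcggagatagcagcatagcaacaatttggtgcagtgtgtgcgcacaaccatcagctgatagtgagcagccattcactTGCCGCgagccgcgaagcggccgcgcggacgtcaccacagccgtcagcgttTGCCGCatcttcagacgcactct
The motif occurred once each in the windows of Nnat and Zim1 and 2 times in that of Nap1l5, and it was absent from those of Zrsr1, H13 and Peg3. Over all 32851 promoters of this length, 11.6% held it on either strand. Among 44 promoters of 28 imprinted genes, 13 held it (29.5%), which belong to 12 genes, with 2 nearly identical windows of Mest. The motif contains a CpG, and these 44 promoters had a median of 14.5 CpG against 7 over all promoters. Promoters of equal CpG count were not compared, so the higher share is not read as a trait of imprinted genes. The CpG count of these windows ranged from 10 in Zrsr1 to 21 in H13, against a median of 7 over all promoters. The RefSeq windows of Peg3 and Usp29 overlap on opposite strands, although the Usp29 transcript of the deposited assembly starts 230731 bp from the start of Peg3. A match is a description of letters only, since methylation was not measured.

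Levels of the imprinted genes ran from among the highest of the tissue, in Gnas, to Cdkn1c, which lay above only 22.5% of all genes. They are compared as FPKM, which are scaled to length. The median of the 34 mean levels was 32.9 FPKM against 8.84 FPKM over all genes, 9 of the 34 exceeded 100 FPKM and 29 exceeded 10 FPKM, and none was at 0 in any mouse. Together they held a median of 1.42% of the summed FPKM, with a range of 0.729 to 1.69% over mice. Gnas (chr2:174284320-174346747, plus strand), which encodes the stimulatory G protein alpha subunit, had the highest mean, 998 ± 98.7 FPKM (SD, n = 282), above 99.9% of all genes. The noncoding RNA Meg3 (chr12:109540786-109571754, plus) followed with 854 ± 93.2 FPKM, and their order held in the medians, 982 and 856 FPKM, although the ranges over mice overlapped (823 to 1490 and 506 to 1116 FPKM). Next came Nap1l5, a nucleosome assembly protein relative without introns, with 563 ± 59.6 FPKM.

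The following 3 genes did not differ beyond their spread over mice. Snrpn, which encodes a splicing protein of neurons, had a mean of 368 ± 29.0 FPKM, Ndn, which encodes the MAGE family protein necdin, 367 ± 58.7 FPKM, and Rian, a noncoding RNA that carries small nucleolar RNAs, 352 ± 72.2 FPKM. Nnat, a small membrane proteolipid gene, was close behind with 301 ± 82.7 FPKM and spanned 75.6 to 632 FPKM. The zinc finger gene Peg3 and Impact, a regulator of translation under stress, had equal means of 168 FPKM with SDs of 18.7 and 18.8. Blcap, which surrounds Nnat, reached 81.5 ± 8.61 FPKM.

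Intermediate levels were seen for signalling and growth genes. The phosphatase gene Inpp5f averaged 53.0 ± 4.11 FPKM, the Notch ligand relative Dlk1 50.1 ± 16.8, the retrotransposon-derived Peg10 47.8 ± 11.2 and the insulin receptor adaptor Grb10 43.0 ± 4.43. Commd1, with a role in copper metabolism, had 42.4 ± 10.2 FPKM, H13, the signal peptide peptidase gene, 39.6 ± 5.13, and the ubiquitin ligase gene Herc3 35.2 ± 4.22. Copg2, a subunit of the coat of transport vesicles, had 30.6 ± 4.28 FPKM, and the ubiquitin protease gene Usp29 30.0 ± 7.59. All of these ranges overlapped their neighbours. For Usp29 the median was 29.0 FPKM, yet a C57L/J mouse had 112 FPKM beside strain mates at 28.6 and 30.4, and a BXD mouse had 90.1 FPKM.

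Lower levels were seen for the remaining genes. Trappc9, of a vesicle tethering complex, averaged 24.0 ± 2.00 FPKM, the noncoding Mirg 22.8 ± 5.59, the potassium channel gene Kcnk9 19.98 ± 3.02, the splicing factor relative Zrsr1 17.8 ± 2.24, the epsilon-sarcoglycan gene Sgce 17.1 ± 1.64 and the growth factor gene Igf2 15.2 ± 7.94. Magel2, a MAGE gene next to Ndn, was at 14.5 ± 2.79 FPKM, which is far below Ndn. Plagl1, a zinc finger transcription factor gene, had 12.8 ± 3.10 FPKM, Mest, which encodes a hydrolase relative, 12.5 ± 4.57, and the ubiquitin ligase gene Ube3a 12.2 ± 2.35. The lowest were Zim1, a zinc finger gene (9.81 ± 1.71), Asb4, a SOCS box gene (8.55 ± 1.79), the receptor gene Igf2r (7.31 ± 0.668), the calcitonin receptor gene Calcr (6.87 ± 1.57) and the cell cycle inhibitor gene Cdkn1c (2.70 ± 0.936). Igf2 had the largest coefficient of variation over mice, 52.3%, followed by Mest with 36.4%, Cdkn1c with 34.6% and Dlk1 with 33.5%, while Inpp5f (7.75%) and Snrpn (7.89%) varied least. In whole tissue, fewer cells of a type and less RNA per cell cannot be told apart.

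**Figure D1:**
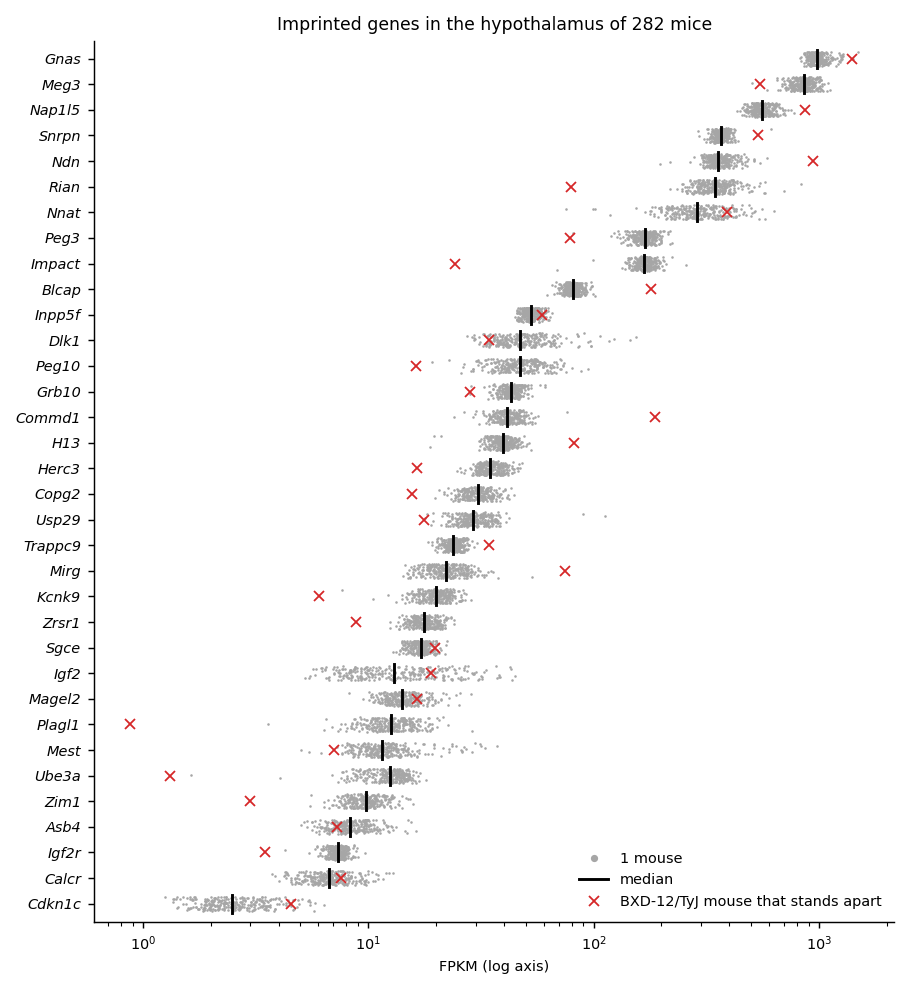
Levels of the 34 imprinted genes (1 row each, in order of the mean) in FPKM on a log axis, with a grey point for each of 282 mice, a black bar at the median and a red cross for the BXD-12/TyJ mouse that stood apart. Gnas and Meg3 lead with medians of 982 and 856 FPKM, and Cdkn1c is lowest with 2.48 FPKM.

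Levels of most imprinted genes differed between strains. In limma's moderated F test over 99 strains on log2(FPKM + 1), with Benjamini-Hochberg adjustment over all genes, 30 of 34 passed at an adjusted p of 0.05. The background was high, since 74.6% of all genes passed. The strain share, which is the intraclass correlation of mice within strains, had a median of 0.301 over the 34 genes and 0.218 over all genes, and it ranged from -0.04 to 0.64 over the 34. Without the BXD-12/TyJ mouse 31 passed (80.5% of all genes), and without the 18 mice 30 passed (69.7%). The genes that did not pass were Commd1 (share 0.05), Impact (0.01), Ube3a (-0.01) and Copg2 (-0.04), of which Impact passed without the BXD-12/TyJ mouse (0.13, adjusted p = 0.0289). With the summed levels of 4 neighbouring tissue lists as covariates, 28 passed (70.2% of all genes), and Peg3 (adjusted p = 0.1996) and Sgce (0.0671) no longer did.

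**Figure D2:**
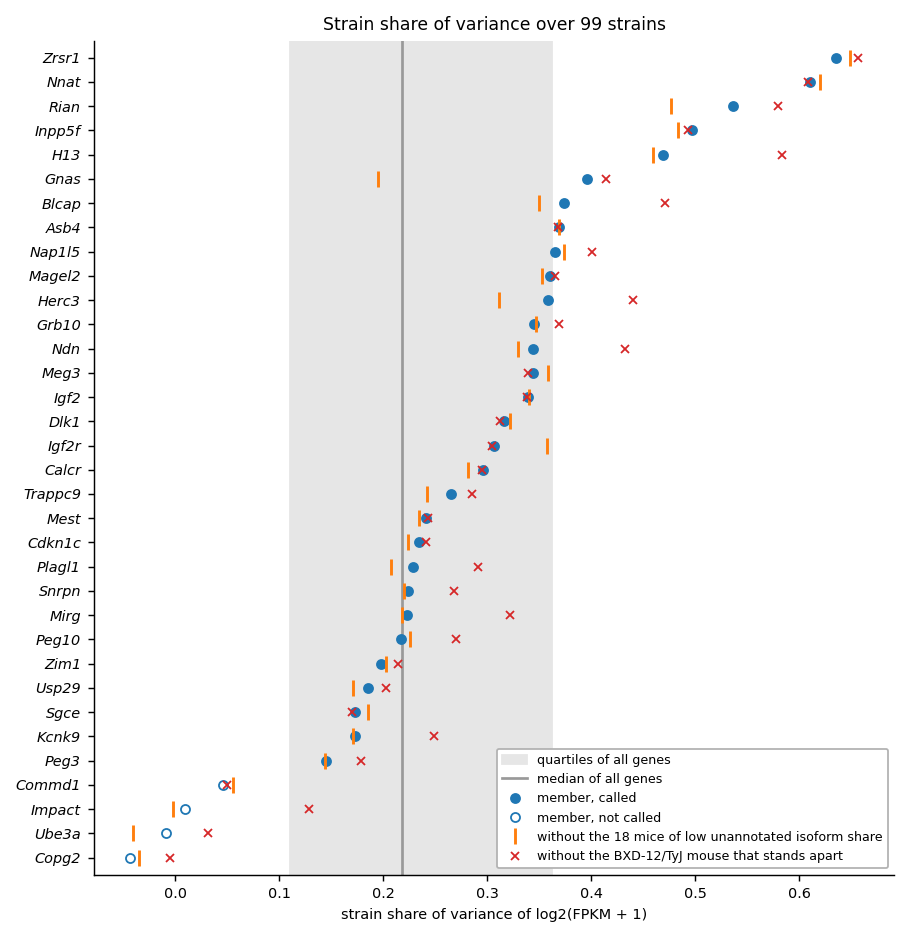
Strain share of log2(FPKM + 1) for each imprinted gene over 99 strains (filled circles passed the test, open ones did not), also without the 18 mice (orange bars) and without the BXD-12/TyJ mouse (red crosses). The grey band and line are the quartiles and the median of all 14820 genes. Zrsr1 (0.64) and Nnat (0.61) lie highest and Copg2 (-0.04) lowest.

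The largest strain shares were those of Zrsr1, Nnat, Rian, Inpp5f and H13. Zrsr1 (chr11:22972005-22976496, plus strand) had a share of 0.64 (limma adjusted p = 8.35e-24), higher than that of 93.9% of all genes. Its highest strain mean was 22.3 FPKM in AXB-15/PgnJ (mice at 24.0, 19.6 and 23.3 FPKM) and its lowest 12.9 FPKM in BXD-12/TyJ (14.6, 8.86 and 15.2), the latter with the mouse that stood apart. The next lowest was BXD-15/TyJ with 13.2, 12.5 and 16.0 FPKM. These strains were picked as the ends of the range, so their lack of overlap is not read as a result. The parental means lay close together: DBA/2J, A/J, C3H/HeJ and C57BL/6J had means of 17.4, 19.2, 18.1 and 17.2 FPKM. Of 43 BXD strains, 19 lay below both parental means of Zrsr1 and 24 above both. The parental means, 17.4 and 17.2 FPKM, lie closer together than the within-strain SD of 1.32 FPKM. Few strains could fall between them, so these counts were nearly fixed in advance. Commd1, the gene around Zrsr1, had no such difference (adjusted p = 0.241). An unannotated isoform of Commd1 that overlaps Zrsr1 (chr11:22972037-22978996) did differ between strains (limma adjusted p = 0.000119, share 0.26, mean 6.07 FPKM).

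Nnat (chr2:157560078-157562522, plus strand) had a strain share of 0.61 (limma adjusted p = 2.19e-22). In A/J the mice were at 101.0, 99.7 and 75.6 FPKM, and every other mouse was above them, the nearest at 118 FPKM. BXD50 was highest with 429, 523 and 632 FPKM. Strain means spanned 5.73-fold, the widest span of the 34 genes. The log2 difference of A/J from C57BL/6J was -1.502 (SE 0.206, limma adjusted p = 9.39e-10), whose mice were at 298, 229 and 259 FPKM. None of the 18 AXB/BXA strains, descendants of A/J and C57BL/6J, had a mean as low as A/J. Their means ran from 204 to 401 FPKM, 11 between the parents and 7 above both. Among BXD strains Nnat ran from 223 to 528 FPKM, with DBA/2J at 362. Blcap, on the other strand, was at 73.3 FPKM in A/J and 85.8 in C57BL/6J. Over the 99 strain means Nnat and Blcap had r = 0.28 (permutation p = 0.00697, adjusted over 561 pairs 0.0205). Their rho was 0.18 and did not pass (permutation p = 0.0757, adjusted 0.141). Within sets r did not pass either, at 0.35 in BXD (permutation adjusted p = 0.0713), 0.42 in inbred (0.223) and 0.03 in AXB/BXA strains (0.970).

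H13 (chr2:152669461-152708670, plus strand) stood out in NON/LtJ, with 18.8, 21.1 and 19.6 FPKM, below every other mouse (nearest 30.9 FPKM). Nnat in A/J and H13 in NON/LtJ were the 2 cases in which all mice of a strain lay outside all other mice, and 442 of all genes (2.98%) had such a strain. The strain share of H13 was 0.77 among inbred strains and 0.63 among AXB/BXA strains, both past the threshold (limma adjusted p = 8.96e-11 and 0.000938), but 0.15 among BXD strains (adjusted p = 0.109), where it was 0.38 without the BXD-12/TyJ mouse (limma adjusted p = 0.000207). The highest mean of H13, 50.5 FPKM in BXD-12/TyJ, came from the mouse that stood apart, at 82.2 FPKM beside 34.5 and 34.8 in its strain mates.

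Rian (chr12:109572174-109661939, plus strand) had a share of 0.54 overall (limma adjusted p = 6.79e-17) and 0.48 without the 18 mice. The highest mean was that of BXD75, with 544, 491 and 489 FPKM, a strain of the 18 mice. Those 16 of the 18 mice that are BXD spanned 397 to 568 FPKM, and the other BXD mice, without the one of BXD-12/TyJ, 247 to 501 FPKM. In BXD87 the mouse of low unannotated share had 424 FPKM and its strain mates 303 and 319. Outside these strains Rian still varied, with a share of 0.75 over the inbred strains (adjusted p = 2.98e-10), where means ran from 236 FPKM in NON/LtJ (219, 234 and 254) to 505 in LG/J. The latter rested on 1 mouse at 700 FPKM, beside 401 and 414 in its strain mates. Inpp5f had a share of 0.50 (adjusted p = 2.17e-13) over a narrow range of 46.3 to 61.8 FPKM. Its extremes, picked from all strain means, were BXD-9/TyJ with 46.7, 45.5 and 46.8 FPKM and BXD-38/TyJ with 64.0, 60.6 and 60.9. BXD-9/TyJ is a strain of the 18 mice, without which the share of Inpp5f was 0.48.

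Gnas had a share of 0.40 (adjusted p = 3.74e-09), and without the 18 mice it was 0.19 (adjusted p = 0.00500). Its highest strains were BXD75 (1415, 1222 and 1156 FPKM) and BXHA1, with a mean of 1257 FPKM, both of that group, and the lowest was NZB/BlNJ with 865, 837 and 823 FPKM. Herc3 was highest in BXD85, another of these strains, at 46.6, 41.8 and 48.1 FPKM. Its share among BXD strains went from 0.30 (adjusted p = 0.00340) to 0.12 without them (adjusted p = 0.235). In the Meg3 and Snrpn clusters, the share of Meg3 and of Ndn was 0.34, beside -0.01 for Ube3a, 0.36 for Magel2, 0.32 for Dlk1 and 0.22 for Snrpn and Mirg. For several genes 1 mouse set the highest strain mean: Commd1, Blcap, Ndn and Mirg in BXD-12/TyJ, Usp29 in C57L/J and Snrpn in CXB-3/ByJ, where the mice had 344, 356 and 610 FPKM.

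**Figure D3:**
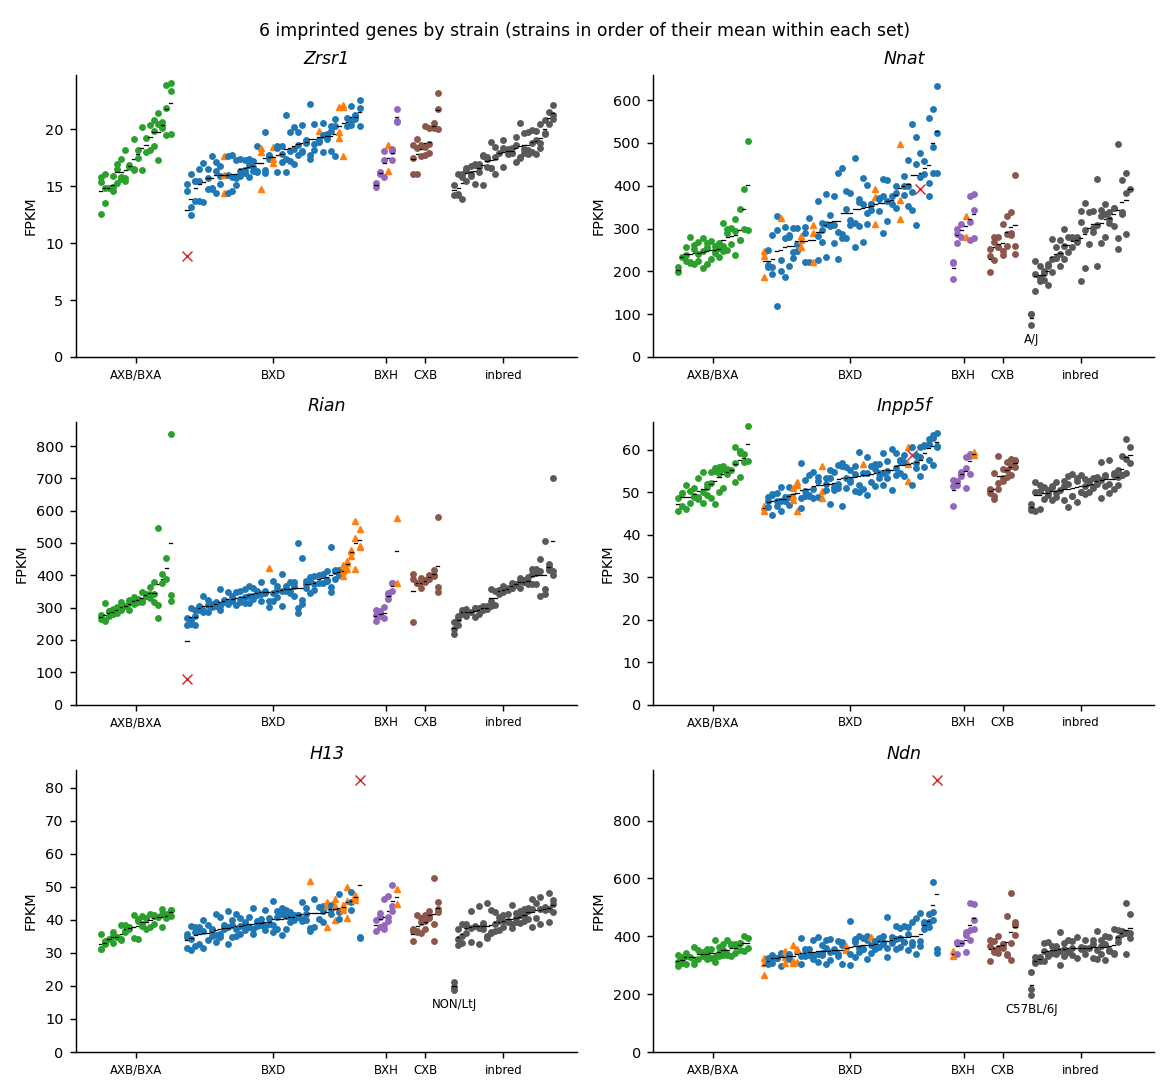
FPKM (linear axes) of 6 imprinted genes in single mice, with the strains of each set in order of their mean and a short bar at each mean. Orange triangles are the 18 mice of low unannotated isoform share and the red cross is the BXD-12/TyJ mouse that stood apart. Nnat in A/J and H13 in NON/LtJ lie below all other mice, and C57BL/6J has the lowest strain mean of Ndn, 231 FPKM.

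Within the strain sets the calls were fewer. Of the 34 genes, 21 passed among BXD strains (40.7% of all genes passed), 24 among inbred strains (60.5%), 13 among AXB/BXA strains (32.2%) and 9 among BXH strains (17.7%). Among the 7 CXB strains limma called 0 (3.89% of all genes), and 4 had an unadjusted p under 0.05. The CXB fit includes the CXB-3/ByJ mouse that lay far from its strain mates, and its effect on the count was not tested. The BXD count was 26 without the BXD-12/TyJ mouse (53.2%) and 14 without the 18 mice (29.7%). The BXH count was 8 without them (11.6%). Within BXH, Asb4 (0.85, adjusted p = 0.00146) and Zrsr1 (0.85, 0.0106) had the largest shares, from only 16 mice. With the neighbouring tissue lists as covariates, 13 passed among BXD strains (32.9% of all genes) and limma called 0 among BXH strains (3.35%), where 6 had an unadjusted p under 0.05. Zrsr1, Nnat and Dlk1 passed in 4 of the 5 sets. Grb10, whose share was 0.70 in AXB/BXA strains (adjusted p = 9.74e-05), also passed in BXD and inbred strains.

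The parental strains were each compared with C57BL/6J, and the 4 comparisons share its 3 mice. Ndn was higher than C57BL/6J in all 4. In C57BL/6J the mice had 278, 218 and 197 FPKM, with the lowest mean of all 99 strains. DBA/2J mice had 365, 388 and 340 FPKM, BALB/cJ mice 336, 360 and 385, C3H/HeJ mice 333, 355 and 377 and A/J mice 320, 329 and 316. None of these overlapped C57BL/6J, but the share of all genes without overlap was not taken, so this is not read as support. The log2 differences were 0.67 (adjusted p = 5.59e-05), 0.65 (0.000117), 0.63 (0.000179) and 0.49 (0.00709), each with an SE of 0.133. None of the recombinant inbred strains had an Ndn mean as low. The BXD means began at 299.8 FPKM and the AXB/BXA means at 314. Without all mice numbered 3, which in C57BL/6J leaves the mice at 278 and 218 FPKM, the adjusted p was 0.1996 in A/J, 0.0670 in BALB/cJ and 0.0807 in C3H/HeJ. Over all alternatives it was at most 0.0218 in DBA/2J.

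Few other imprinted genes passed in these comparisons. In A/J, 4 of 34 were called against C57BL/6J (7.78% of all genes), 1 higher and 3 lower (2.95% and 4.83%). Besides Nnat these were Asb4, with 6.11, 5.64 and 6.24 FPKM in A/J against 10.6, 8.60 and 8.88 (adjusted p = 0.0170), and Sgce, with 15.7, 14.3 and 13.7 against 18.04, 19.9 and 18.3 FPKM (adjusted p = 0.00998). Leaving out replicates took these adjusted p values to at most 0.172 and 0.158. In DBA/2J, 2 were called (6.67% of all genes), 1 higher and 1 lower (3.20% and 3.47%). The second, Plagl1, was at 9.15, 6.92 and 7.89 FPKM against 15.4, 15.6 and 14.5 (adjusted p = 0.0195, at most 0.172 without a replicate), and 38 of the 43 BXD strains had Plagl1 means between the parents. In C3H/HeJ, 2 were called (7.35%), 1 higher and 1 lower (3.75% and 3.60%), Rian being lower with 283, 280 and 292 FPKM against 505, 343 and 358. That call was near the threshold (adjusted p = 0.0493) and ranged from 0.0129 to 0.630 over the alternatives, being highest without the mice numbered 1, which leaves out the C57BL/6J mouse at 505 FPKM. In BALB/cJ Ndn alone was called (6.62%, of which 2.77% higher and 3.85% lower). The median log2 difference over the 34 genes ran from -0.16 in A/J to -0.05 in BALB/cJ, against -0.02 to 0.01 over all genes.

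Transcripts were tested in the same way, and here the 18 mice weighed heavily. Of 244 transcripts of imprinted genes, 146 differed between strains by limma's moderated F test (46.8% of all transcripts), 102 did without the 18 mice (26.6%) and 151 without the BXD-12/TyJ mouse (49.8%). The share of a transcript in the summed FPKM of its gene differed between strains for 92 of 237 (37.0% of all shares tested), for 56 without the 18 mice (17.0%) and for 95 without the BXD-12/TyJ mouse (38.9%). For 11 of the 244 the values of the 18 mice and the others, which were split by transcript values, did not overlap (3.49% of all transcripts). The assembly gave 7 genes a single transcript, and in 24 genes at least 2 transcripts each made up 10% or more. A known transcript led in 28 genes and an unannotated isoform in 6.

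Several isoforms differed between strains chiefly through the 18 mice. For Meg3, an unannotated isoform related to Meg3-207 averaged 0.496 FPKM in the 18 mice and 123 FPKM in the others, and its strain share was 0.93 with and 0.28 without them. For Impact the reference transcript Impact-201 averaged 171 FPKM in the 18 mice and 109 in the others, while an unannotated isoform of it averaged 0.202 and 38.7 FPKM. The share of that isoform was 0.90 with and 0.19 without the 18 mice. The level of Impact summed over its isoforms did not pass the test between strains over all mice (limma adjusted p = 0.435) and passed without the BXD-12/TyJ mouse (0.0289). Likewise Herc3-202 averaged 23.0 against 5.63 FPKM (share 0.38 with and 0.00 without the 18 mice), the known Asb4-201 5.38 against 0.365 FPKM (0.51 and 0.01) and Gnas-208 881 against 574 FPKM (0.18 and -0.12). The leading unannotated isoforms of Mest were near 0 in the 18 mice (below 0.12 FPKM on average) and at 1.39 to 3.05 FPKM in the others. Known transcripts were higher, and unannotated ones lower, in these examples. The 18 mice were set apart by their low share of unannotated isoforms, so this direction follows from how they were chosen. Strain and this property cannot be told apart for 6 of the 7 strains.

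Other isoforms kept their strain differences without the 18 mice. Rian-202 had the largest share, 0.77 with them and 0.75 without (limma adjusted p = 1.32e-32). Its lowest strain means were those of KK/HlJ (16.9, 23.9 and 31.4 FPKM), NON/LtJ (25.6, 25.3 and 28.5) and MA/MyJ (29.8, 31.0 and 27.1). Inbred strains reached 89.6 FPKM, but these are ends of a range picked from the same values. Nnat-202 followed (0.61 and 0.62), as did Zrsr1-201 (0.611 and 0.615). H13-202, the full-length transcript with 13 exons, had a share of 0.56 with and 0.55 without the 18 mice. In NON/LtJ it was at 7.17, 7.74 and 7.09 FPKM, and the next strain, NZB/BlNJ, had 18.9, 17.7 and 15.2 FPKM. The proportion of H13 that it made up also differed between strains (strain share 0.58 with and 0.60 without the 18 mice).

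Peg10 had 2 main transcripts of similar means, the spliced Peg10-202 (15.3 FPKM) and the single-exon Peg10-203 (14.1 FPKM). Peg10-203 had a strain share of 0.41 both with and without the 18 mice, and Peg10-202 one of 0.09 that did not pass (adjusted p = 0.121). Peg10-203 was at 28.6, 25.2 and 24.2 FPKM in DBA/2J and at 0.003, 6.92 and 0.41 in SM/J, where the mice differed among themselves but lay below DBA/2J. Meg3-202 had shares of 0.46 and 0.42, with its lowest mean in NZB/BlNJ (84.5, 55.8 and 57.8 FPKM). In BXD75 and BXD70, of the 18 mice, its means were 235 and 226 FPKM, and in MA/MyJ, outside them, the mice had 221, 203 and 216 FPKM. Since all isoforms of a gene share reads, these values are estimates by the authors' software and not separate measurements.

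**Figure D4:**
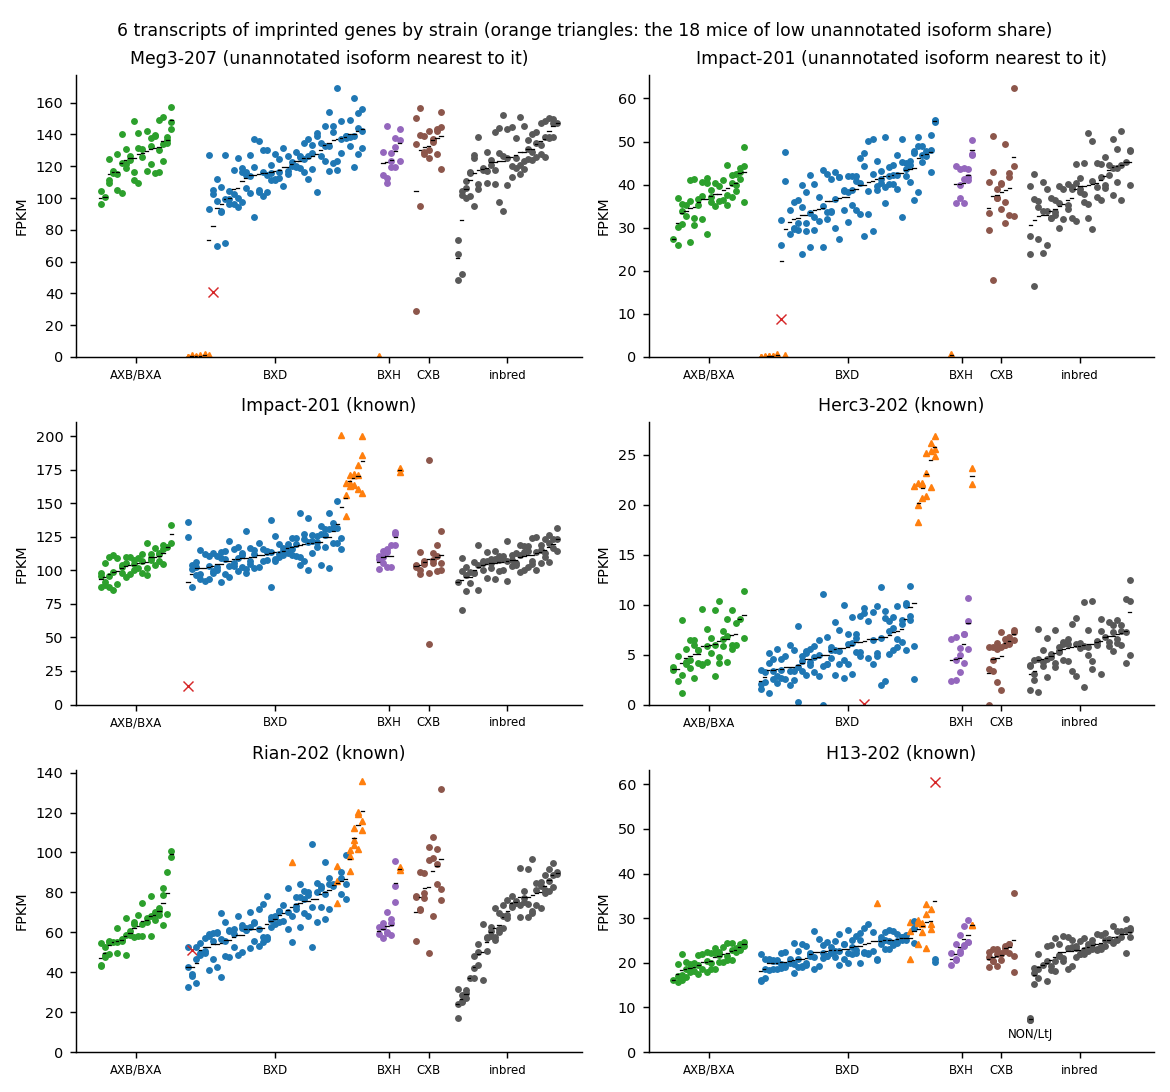
FPKM (linear axes) of 6 transcripts of imprinted genes in single mice, with the strains of each set in order of their mean, the 18 mice of low unannotated isoform share as orange triangles and the BXD-12/TyJ mouse that stood apart as a red cross. Rian-202 and H13-202 vary among the other mice too, and the Impact and Meg3 isoforms are near 0 in the 18.

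Covariation was examined over the 99 strain means. The strains are not independent points, because recombinant inbred strains of a set share the same parental genomes. Of the 561 pairs of imprinted genes, 244 passed a permutation test of Pearson's r adjusted over these pairs, 192 positive and 52 negative. Among all pairs of genes 9.94% had a positive r of at least the smallest called size. The smallest r called was 0.231 in absolute size, which 18.2% of all pairs of genes reached, positive and negative together. No separate share is given for negative r, so the count of negative pairs is not read as a trait of the imprinted genes. An absolute r of at least 0.6 was seen in 15 pairs (2.67%) and in 0.290% of all pairs of genes. The median r over the 561 pairs was 0.12, against 0.005 over all gene pairs. Without the BXD-12/TyJ mouse 223 passed and without the 18 mice 243. Within sets, with fewer strains, 144 passed among BXD strains, 37 among inbred and 44 among AXB/BXA strains. With the levels of the neighbouring tissue lists regressed out, 204 passed. The shares over all pairs of genes were taken from the main strain means only.

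The closest pair was Peg3 and Zim1, neighbours on chromosome 7, with r = 0.82 (rho = 0.78, each with a permutation p of 1e-05, the smallest that the resamples allow). Leaving out the 2 strains farthest from the median of Peg3 gave r = 0.81. The relation held in each large set, with r = 0.86 in BXD, 0.71 in inbred and 0.90 in AXB/BXA strains, and r was 0.80 without the BXD-12/TyJ mouse. Peg3 also went with genes on other chromosomes. With Kcnk9 r was 0.72 (rho = 0.67), with Grb10 0.69 (0.67) and with Plagl1 0.65 (0.60), each past the threshold in BXD strains with r of 0.76, 0.76 and 0.60. Kcnk9 (adjusted p = 0.0926) and Plagl1 (0.0905) did not pass in AXB/BXA strains, nor did Grb10 (0.155) in inbred strains. Zim1 starts 33856 bp from Peg3. Usp29, from the same cluster, had r = 0.59 with Zim1 and 0.51 with Peg3. Neither passed among inbred strains, with r of 0.38 and 0.35 (permutation adjusted p = 0.277 and 0.340).

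A second group was formed by Magel2, Ndn, Nap1l5 and Asb4. The strain means of Magel2 and Nap1l5 had r = 0.71 (rho = 0.62), those of Ndn and Nap1l5 0.70 (0.71), those of Magel2 and Asb4 0.69 (0.56) and those of the neighbours Ndn and Magel2 0.60 (0.65). All passed in BXD and AXB/BXA strains. Among inbred strains Ndn with Nap1l5 (r = 0.41, adjusted p = 0.224) and Ndn with Magel2 (r = 0.25, 0.550) did not. With the neighbouring tissue lists regressed out, these values were smaller, 0.44 for Magel2 with Nap1l5, 0.48 for Ndn with Nap1l5, 0.40 for Magel2 with Asb4 and 0.27 for Ndn with Magel2. Further pairs were Dlk1 with Mest (r = 0.66, rho = 0.56), Ube3a with Herc3 (0.65, 0.66) and Cdkn1c with Igf2 (0.70, 0.67). The last was 0.07 with the tissue lists regressed out (adjusted p = 0.611).

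Within clusters 18 of 27 pairs passed, 15 of them positive, with a median r of 0.24. Between clusters 226 of 534 passed, with a median of 0.11. Among all pairs of genes 18.2% reached the smallest absolute r called. After quantile normalization the shares within and between clusters were alike. Then 12 of 27 passed within clusters, all positive (44.4%, median r 0.16), and 235 of 534 between clusters (44.0%, 0.15). Neighbours did not always vary together. Peg10 and Sgce, which start 102 bp apart, had r = 0.02 (permutation p = 0.844), and Trappc9 and Kcnk9 had r = -0.0016 (p = 0.988). Mest and the overlapping Copg2 had r = 0.08 (p = 0.455) and Zrsr1 and Commd1 -0.17 (p = 0.0919), or -0.01 without the BXD-12/TyJ mouse. In the Meg3 cluster, r was 0.56 for Meg3 with Dlk1, which are expressed from opposite parental copies, 0.29 for Meg3 with Rian and 0.27 for Meg3 with Mirg. Meg3 with Rian was 0.56 among BXD strains but 0.23 (permutation adjusted p = 0.592) among inbred and 0.12 (0.837) among AXB/BXA strains. It was 0.23 (adjusted p = 0.0506) without the BXD-12/TyJ mouse. Meg3 with Dlk1 passed in BXD and AXB/BXA strains but not in inbred strains (r = 0.41, adjusted p = 0.224). Meg3 with Mirg passed in none of these sets, with r of 0.37 in BXD (0.0540), 0.20 in inbred (0.651) and 0.19 in AXB/BXA strains (0.705).

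Snrpn and Ube3a, likewise expressed from opposite parental copies in neurons, had the most negative r of the 561 pairs, -0.55 (rho = -0.46). It was -0.51 in BXD and -0.66 in AXB/BXA strains and -0.50 in inbred strains (adjusted p = 0.0967), but 0.062 after quantile normalization, so its sign depended on the scaling. Ndn and Ube3a had r = -0.46, which was -0.27 in inbred strains (adjusted p = 0.483), -0.26 in AXB/BXA strains (0.564) and -0.12 after quantile normalization (0.331). Snrpn and Ndn, from the same parental copy, had r = 0.23 (adjusted p = 0.0475), which was 0.19 without the BXD-12/TyJ mouse (0.116) and -0.030 after quantile normalization.

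**Figure D5:**
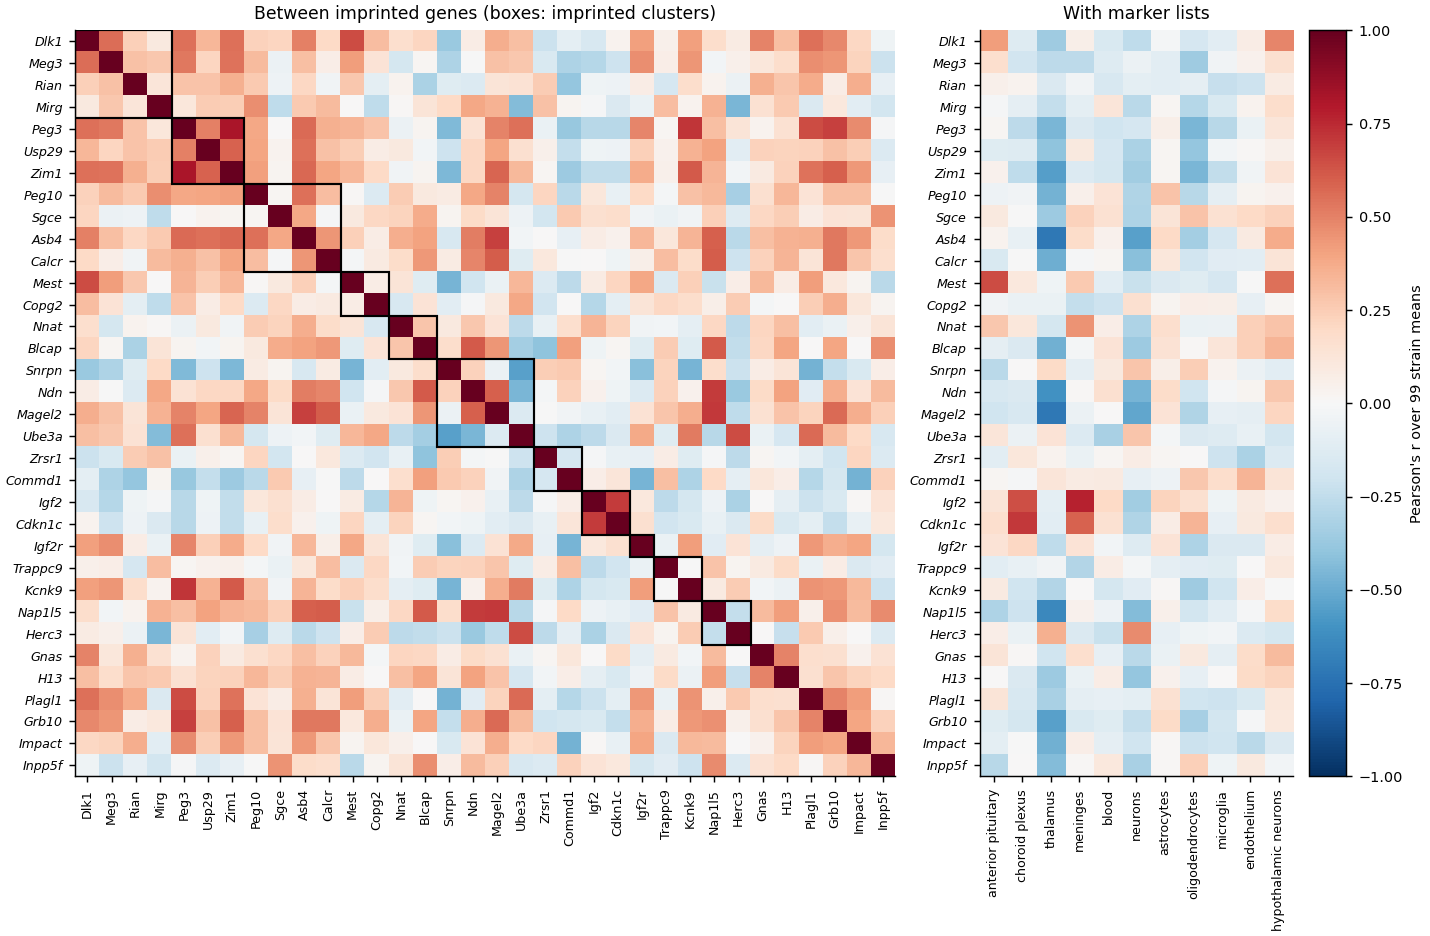
Pearson's r of strain means of log2(FPKM + 1) over 99 strains, from blue (negative) to red (positive), for all pairs of the 34 imprinted genes (left, black boxes for clusters) and with the 11 marker lists (right). Peg3 with Zim1 (0.82) is the strongest positive pair and Snrpn with Ube3a (-0.55) the strongest negative, a sign that turned under quantile normalization.

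Strain means of the imprinted genes were also set against the summed levels of 11 marker lists, and 83 of 374 pairs passed (25 positive, 58 negative). The thalamus list, from the tissue next to the hypothalamus, gave 20 of 34 (22.8% of all genes reached the same absolute r), of which 19 were negative (9.97% of all genes). Asb4 had r = -0.72 (rho = -0.59), Magel2 -0.71 (-0.59), Nap1l5 -0.65 (-0.53) and Ndn -0.61 (-0.57), each with a permutation p of 1e-05. Without the 2 extreme strains they ranged from -0.56 to -0.66, and in BXD strains from -0.64 to -0.74. Among inbred strains r was -0.48, -0.57, -0.56 and -0.34 for these genes, and none passed. In AXB/BXA strains Asb4 and Magel2 passed (-0.82 and -0.72), and Nap1l5 (-0.54) and Ndn (-0.58) did not. Herc3 was the only imprinted gene with a positive r past the threshold (0.35). The general neuron list gave 21 (26.3% of all genes), 18 of them negative (12.6%), Asb4 (-0.54) and Magel2 (-0.52) again leading. The hypothalamic neuron list gave 7 (9.45%), all positive (5.13%), with Mest at 0.55 and Dlk1 at 0.49, although the rho of Mest was 0.24 (adjusted p = 0.0829). Pomc, a gene of this list that the pituitary also expresses, ranged from 1.45 to 6851 FPKM over mice.

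Igf2 and Cdkn1c went with markers of the brain's coverings and choroid plexus, where they are known to be expressed. Igf2 had r = 0.77 (rho = 0.78) with the meninges list, in which 6 imprinted genes passed (10.6% of all genes), and 0.64 (0.61) with the choroid plexus list, in which 3 passed (6.88%). Cdkn1c had r = 0.71 (0.68) with choroid plexus and 0.59 (0.58) with meninges. For Igf2 with meninges r was 0.72 in BXD, 0.74 in inbred and 0.80 in AXB/BXA strains. The lists were small, since 3 of the 7 meninges genes, Dcn, Slc6a13 and Fmod, were in the table. Mest went with the anterior pituitary list (r = 0.65, rho = 0.53), which gave 6 genes (4.17%), and r was 0.68 in BXD and 0.84 in AXB/BXA strains but 0.46 (adjusted p = 0.298) in inbred strains. The oligodendrocyte list gave 14, of which 11 were negative and 3 positive (7.62% and 7.40% of all genes), led by Zim1 and Peg3 with -0.46 each. The endothelium list gave 3, and the astrocyte, blood and microglia lists gave 1 each (11.2%, 3.59%, 7.86% and 5.34% of all genes). Without the BXD-12/TyJ mouse the endothelium and microglia genes no longer passed. Quantile normalization left 15 with the neuron list, 10 of them negative, 6 with the oligodendrocyte list, all negative, 6 with the hypothalamic neuron list, 5 of them positive, and 3 with the pituitary list, all positive. The part of tissue composition in the strain differences was not tested beyond the fits with these lists as covariates.

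Of a list of 50 other imprinted genes, 27 were in the table and 23 differed between strains, beside 74.6% of all genes, with a median strain share of 0.28. The largest strain shares were those of Pon2 (0.65), which encodes a lactonase, Qpct (0.60), an enzyme that modifies the ends of neuropeptides, and Atp10a (0.59), a lipid transporter gene of the Snrpn region. The smallest were those of Tssc4 (-0.01), Zdbf2 (0.01) and Chrac1 (0.01), and these together with Ppp1r9a were the 4 that did not pass. Of 20 listed genes that set or keep imprints, 17 were in the table and 9 passed, with a median share of 0.13, and without the BXD-12/TyJ mouse 13 passed, beside 80.5% of all genes. Tet3, which oxidizes methylated cytosine, had the largest (0.41), before the maintenance methyltransferase gene Dnmt1 (0.30) and Yy1 (0.30, but 0.16 without the 18 mice), a zinc finger gene, whereas Atrx (-0.01), Ctcf (0.06) and Arid4a (0.07) had the smallest. Zfp57 itself was expressed at 11.3 ± 1.88 FPKM and differed between strains (share 0.23, limma adjusted p = 0.000308), while the call for Trim28, its partner, turned on the BXD-12/TyJ mouse, with a share of 0.07 over all mice (adjusted p = 0.140) and 0.23 without it (0.000269).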

How the data were processed

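Per the labels and the study's methods, the authors aligned reads of unstranded mRNA libraries to mm10 (STAR 2.3.1), built an assembly (Cufflinks 2.2.0, joined with GENCODE M2) and quantified it (Cuffnorm 2.2.1). The deposited values are FPKM, scaled between mice by the authors, for features above 0 FPKM in at least 100 mice and above 1 FPKM in at least 50, which was checked on the values. FPKM carry no counts, so counting error is unknown and precision is given by the spread over mice. The read depth of each library came from the study's sample list and was used only as a covariate. Of the value columns, 0 were left unused.

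A gene value is that of its locus, or the sum of the transcripts of its name at the 639 loci with several names. Values were tested as log2(FPKM + 1), so fold changes of low genes are understated, with limma 3.58.1 in R 4.3.3 and Benjamini-Hochberg adjustment over all features. The code was tested on simulated data. Strain comparisons omit the mouse with a doubtful strain. Correlations used 100000 resamples in 2-sided permutation tests (Python 3.11.15, numpy 2.4.6, pandas 2.3.3, scipy 1.17.1, matplotlib 3.10.9). Transcript names came from GENCODE M21 on GRCm38 and promoters from RefSeq on GRCm38.p6, which held 28 of the 34 genes.

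The members, lists, tests and alternatives were chosen with earlier results of these data known. All members are named, with the 10 pairs of largest absolute r and all pairs within clusters, leading transcripts, and the 3 genes of largest and of smallest strain share in the other lists. Other genes and transcripts, and the pairs with marker lists, were picked after their values were seen. The 18 mice of low unannotated isoform share were found in the data, by a limit of 15%. Marker lists were those of anterior pituitary, choroid plexus, thalamus, meninges, blood, neurons, astrocytes, oligodendrocytes, microglia, endothelium and hypothalamic neurons. Alternatives were a pseudocount of 0.1, quantile normalization, a minimum mean FPKM of 1, leaving out each replicate number, the BXD-12/TyJ mouse or the 18 mice, read depth or marker levels as covariates, the Kruskal-Wallis test, transcript sums and both placements of the mouse of unclear strain. Genotypes and traits were not analysed here.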

Additional observations from a re-analysis of the deposited data

How the results depend on the processing

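No paired analysis was possible because the replicate numbers only follow the order of deposition and pair no mice. Strain shares kept their direction and side of the threshold in 416 values under alternatives, lost the call in 25 and gained it in 1. Parental differences kept it in 64 and lost it in 17, and named correlations kept it in 441, lost it in 77, gained it in 7 and changed sign in 5. Of counts, 110 stayed within 1.5 times and 41 did not. Leaving out all mice of 1 replicate number took the 30 called genes to 18 to 27, with 2 to 6 of 13 in AXB/BXA, 8 to 14 of 21 in BXD, 0 to 2 of 9 in BXH, 7 to 16 of 24 in inbred and 0 in CXB strains, where limma gave 1 to 3 genes with an unadjusted p under 0.05 (10 in BXH strains at its count of 0). By construction these fits have fewer mice, and the share of all genes called in them is not given. In the same way, the calls against C57BL/6J became 1 to 3 in A/J and 1 each in BALB/cJ, C3H/HeJ and DBA/2J, called transcripts 75 to 114, isoform shares 46 to 65, pairs of genes 232 to 258, pairs with marker lists 71 to 95, other imprinted genes 15 to 17 and imprint maintenance genes 3 to 10. With marker levels as covariates, limma called 13 genes in BXD and 0 in BXH strains (6 with an unadjusted p under 0.05). Without the BXD-12/TyJ mouse, 7 were called in A/J and 2 in BALB/cJ. In parental comparisons the share of all genes called is given for the main fits only. The counts under alternatives are therefore not read as results about the imprinted genes. Quantile normalization gave 2 in BALB/cJ and 1 in C3H/HeJ, where a pseudocount of 0.1 and a mean FPKM of at least 1 each also gave 1. Without the 18 mice of low unannotated isoform share, an alternative chosen after seeing the data, 56 isoform shares were called. Correlated pairs numbered 413 over deviations of mice from strain means, 144 in BXD, 37 in inbred and 44 in AXB/BXA strains, and pairs with marker lists 222, 43, 2 and 8. The correlations that changed sign were Snrpn with Ube3a (0.062), Nap1l5 with Herc3 (0.051) and Snrpn with Ndn (-0.030) under quantile normalization, Sgce with Asb4 in AXB/BXA strains (-0.153) and Meg3 with Mirg over deviations of mice (-0.080). The cause of these changes was not tested. With 2 or 3 mice per strain, differences of a single strain are limited by the spread within strains, and FPKM give no counts.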
